A study of Mus musculus with 54 samples.

Results

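The nuclear genes that encode the subunits of the mitochondrial respiratory chain were followed in liver, kidney and quadriceps muscle of mice. Members were chosen by symbol: a gene belonged to the set when its symbol began with Nduf followed by a, b, c, s or v and a digit, with Uqcr, with Cox followed by a digit of the cytochrome c oxidase series, or with Atp5, or when it was Sdha, Sdhb, Sdhc or Sdhd, and symbols marked as pseudogenes were left out. The rule took 91 of the 55471 gene entries of each count table. Grouped by symbol, 42 are counted with complex I, 4 with complex II, 8 with complex III, 19 with complex IV and 18 with complex V. Ndufa4, now known as a subunit of complex IV, and its relative Ndufa4l2 are thus counted with complex I. The set is a list of names, and it was chosen with earlier results of these data known. All mice were C57BL/6J, an inbred laboratory strain, of both sexes. The young group was 50 weeks of age. Both aged groups were 130 weeks of age, of which one received a control diet (old) and the other a diet with corylin, a flavonoid of Psoralea corylifolia. Each tissue, sex and condition had 3 RNA-seq libraries of poly(A) RNA, apart from the livers of corylin-fed males, of which only replicates 2 and 3 (2 libraries) were analysed. The 53 libraries came from 18 animals.

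The respiratory chain sits in the inner mitochondrial membrane. Complex I takes electrons from NADH, complex II takes them from succinate, complex III passes them to cytochrome c, and complex IV hands them to oxygen. Complexes I, III and IV pump protons, and complex V, the ATP synthase, lets the protons return and makes ATP. A small core of subunits is encoded in mitochondrial DNA, all of complex II and the other subunits are encoded in the nucleus, and assembly needs both. Some complex IV subunits exist as a widely expressed form and a form found in heart and skeletal muscle, and liver, kidney tubules and muscle fibres all depend on oxidative phosphorylation.

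Levels are given as TPM, which corrects for gene length and was made by the authors, or as CPM, which is counts per 1e+06 counts of a library after TMM scaling and serves to compare libraries of 1 gene. Depth, in units of 1e+06 counts, ran from 9.03 to 16.61 for liver libraries, from 8.69 to 23.19 for kidney libraries and from 13.25 to 19.7 for quadriceps libraries. A filter on low counts left 83 members to be tested in liver, 86 in kidney and 85 in quadriceps. No count was seen in any library for 5 members in liver (Ndufa11b, Ndufb11b, Cox7b2, Cox8c and a second Atp5o entry that overlaps the first) and for 3 in kidney and in quadriceps (Ndufb11b, Cox8c and the second Atp5o entry). Ndufa11b, Ndufb4c, Ndufs6b and Cox6c2 are processed pseudogenes in the annotation used here, and their counts and those of their parent genes could have been split by the counting. The labelled tissues carried their own markers: summed hepatocyte markers reached 62300 to 116000 CPM in liver, summed proximal tubule markers 7240 to 38400 CPM in kidney and summed fast glycolytic fibre genes 76500 to 189000 CPM in quadriceps.

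Promoter sequences are shown for 4 members on which the results below turn: Cox8a and Cox8b, the widely expressed and the muscle form of one complex IV subunit, and Cox6b1 and Ndufb8, subunits of complex IV and complex I that fell with age in liver. Each runs from 250 bases before to 50 bases after the RefSeq start of the gene (build GRCm38.p6), 5′ to 3′ on the strand of the gene. The windows are chr19:7217567-7217866 for Cox8a, chr7:140900397-140900696 for Cox8b, chr7:30626065-30626364 for Cox6b1 and chr19:44555393-44555692 for Ndufb8, all on the minus strand. Capitals mark matches, on either strand, to the motif letters given after the sequences.
Cox8a: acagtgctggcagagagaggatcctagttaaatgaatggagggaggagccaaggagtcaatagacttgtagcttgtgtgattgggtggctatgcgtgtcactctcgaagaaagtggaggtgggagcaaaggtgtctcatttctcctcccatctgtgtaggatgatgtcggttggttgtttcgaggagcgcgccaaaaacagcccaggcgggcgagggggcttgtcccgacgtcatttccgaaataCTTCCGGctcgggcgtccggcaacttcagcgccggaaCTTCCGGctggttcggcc
Cox8b: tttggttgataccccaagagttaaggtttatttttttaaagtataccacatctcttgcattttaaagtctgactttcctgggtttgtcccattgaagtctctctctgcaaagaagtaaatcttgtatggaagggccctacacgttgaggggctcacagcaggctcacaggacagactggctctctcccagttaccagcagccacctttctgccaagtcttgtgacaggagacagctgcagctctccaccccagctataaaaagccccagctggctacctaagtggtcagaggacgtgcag
Cox6b1: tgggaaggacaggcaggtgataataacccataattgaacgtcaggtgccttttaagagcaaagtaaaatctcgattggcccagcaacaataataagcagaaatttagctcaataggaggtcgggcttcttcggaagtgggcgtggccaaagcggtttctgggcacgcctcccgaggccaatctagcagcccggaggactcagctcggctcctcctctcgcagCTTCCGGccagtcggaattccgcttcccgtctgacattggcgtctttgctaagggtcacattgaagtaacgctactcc
Ndufb8: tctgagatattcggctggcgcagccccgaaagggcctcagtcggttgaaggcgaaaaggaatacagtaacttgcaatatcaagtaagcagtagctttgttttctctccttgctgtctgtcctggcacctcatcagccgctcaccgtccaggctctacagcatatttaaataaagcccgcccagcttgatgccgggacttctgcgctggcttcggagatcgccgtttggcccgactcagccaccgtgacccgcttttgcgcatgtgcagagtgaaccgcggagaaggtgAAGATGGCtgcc

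The motifs searched, on both strands, were those of nuclear respiratory factor NRF1 (GCGCA, any base, GCGC), of GABPA (CCGGAAG), of the estrogen-related receptors (AAGGTCA), of YY1 (AAGATGGC) and of the cAMP response element (TGACGTCA), all factors known for a part in respiratory gene expression. In RefSeq's promoter table, 70 members had a window, and the table held 27025 windows in all. The NRF1 letters were in 16 members' windows (22.9%, against 4.78% of all windows) and the GABPA letters in 16 (22.9% against 9.12%). YY1 letters were in 9 (12.9% against 2.88%), estrogen-related receptor letters in 8 (11.4% against 4.66%) and the cAMP response element in 4 (5.71% against 1.88%). At least 1 of the motifs was in 39 members' windows, 55.7% against 20.7%. The Cox8a window held the GABPA letters at 2 places and that of Cox6b1 at 1, the Ndufb8 window held the YY1 letters, and the Cox8b window, of the muscle form, held none of these letters. The windows of Cox7a1, the muscle form of subunit 7a, and of its widely expressed partner Cox7a2 held none either. All these matches are of letters and not measured binding sites.

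In young mice the members together made up 1.25 to 1.58% of all TPM in the 6 livers, 2.07 to 2.77% in the 6 kidneys and 1.89 to 2.63% in the 6 muscles, so that the ranges of kidney and quadriceps overlapped and that of liver lay below both. Mean TPM in young mice was at least 100 for 45 of the 91 members in liver, 63 in kidney and 57 in quadriceps, and under 1 for 8, 5 and 6. The alpha and beta subunits of the F1 part of complex V were among the 3 highest members everywhere: Atp5a1 stood at 880 ± 63.8 TPM in liver, 1900 ± 139 in kidney and 1810 ± 212 in quadriceps (mean ± SD, n = 6). The third of the highest was Cox6a1 in liver (789 ± 131 TPM), Cox8a in kidney (1390 ± 222 TPM) and Cox6a2 in quadriceps (2730 ± 426 TPM), the last standing above all other members of that tissue.

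The tissue-type pairs of complex IV gave the widest differences between tissues. Cox6a2, the heart and muscle form of subunit 6a, was at 2730 TPM in quadriceps against 0.257 TPM in liver and 1.4 TPM in kidney, while Cox6a1, its widely expressed partner, was at 45.1 ± 19.5 TPM in quadriceps against 789 ± 131 in liver and 1380 ± 270 in kidney. Cox7a1, the muscle form of subunit 7a, was at 573 ± 82.1 TPM in quadriceps, 32.6 ± 13.8 in kidney and 4.72 ± 1.97 in liver. Cox8b was at 1050 ± 228 TPM in quadriceps and 0.237 TPM in liver. The muscle form thus dominated each pair in muscle: over all 18 quadriceps libraries Cox6a2 made up 95.2 to 99.0% of the summed TPM of Cox6a1 and Cox6a2, Cox8b 83.7 to 95.6% of its pair and Cox7a1 82.5 to 89.8% of its pair. In liver the muscle forms reached at most 0.96, 3.76 and 6.1% of these pairs, and in kidney at most 0.345, 4.25 and 16%. The ranges of muscle and the other tissues did not overlap for any of the 3 pairs.

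**Figure D1:**
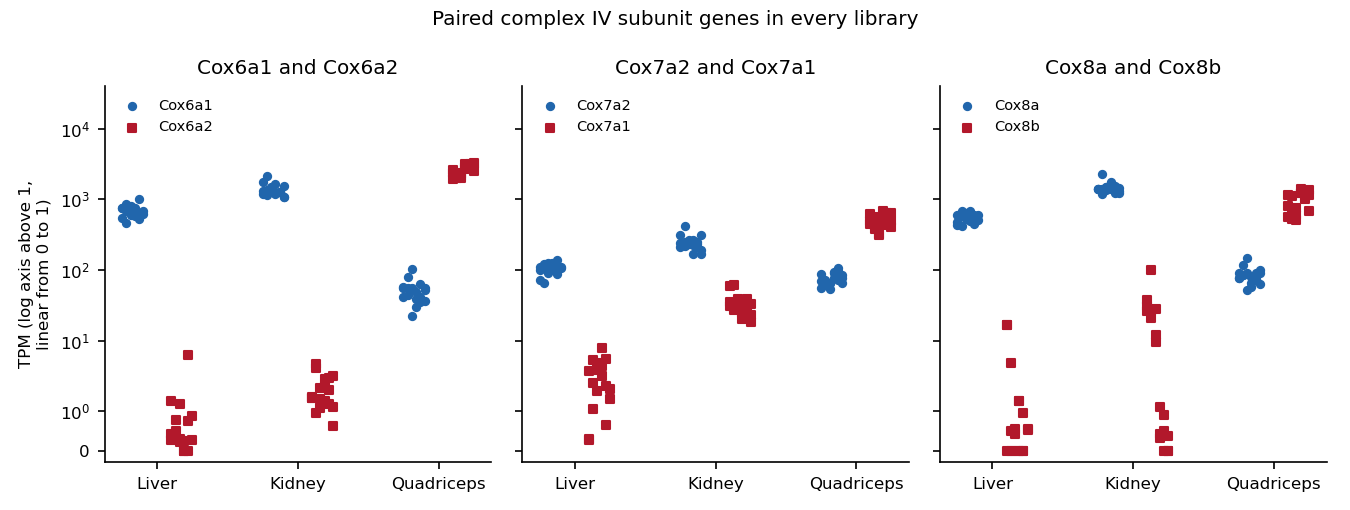
TPM on a log axis of the widely expressed and the muscle form of subunits 6a, 7a and 8 of complex IV, 1 point per library, in liver, kidney and quadriceps. In quadriceps the muscle forms lie above their partners, and in liver and kidney they lie below them.

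Other pairs were less divided. Cox6b2, known as the testis form of subunit 6b, made up 8.17 to 19.1% of its pair with Cox6b1 in kidney, at most 3.24% in liver and at most 0.477% in quadriceps, and stood at 60.3 ± 18.4 TPM in young kidney. Cox4i2, the form of subunit 4 known for its response to low oxygen in lung, stayed under 1% of its pair in all 3 tissues, at most 0.855%. Among the 3 genes that encode the same mature subunit c of the ATP synthase ring, Atp5g3 gave 55.4 to 65.0% of the TPM in quadriceps, below its range of 67.1 to 77.9% in liver and 70.6 to 76.1% in kidney.

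Tested in 1 fit of all 53 libraries, which held no term for the animal although the tissues came from the same animals, 54 of 86 members were higher and 9 lower in young quadriceps than in young liver (edgeR, adjusted p under 0.05), against 35.6% of all genes higher and 39.4% lower. The largest differences were those of Cox6a2 (log2 13.42 ± 0.43 SE, edgeR adjusted p = 9.87e-28), Cox8b (11.74 ± 0.72, adjusted p = 3.52e-18) and Cox7a1 (6.87 ± 0.33, adjusted p = 1.37e-21) upward, and of Cox6a1 (-4.21 ± 0.23, adjusted p = 9.11e-20) and Cox8a (-3.04 ± 0.18, adjusted p = 1.77e-18) downward. Fitted values for genes near 0 in one tissue, such as Cox6a2 and Cox8b, depend on the prior count. By complex, 26 of 40 members of complex I, 3 of 4 of complex II, 5 of 8 of complex III, 8 of 17 of complex IV and 12 of 17 of complex V were higher in quadriceps than in liver. Complex IV also held 5 of the 9 lower members, among them Cox6b2 (-2.57) and Cox7a2 (-0.67), and complex III held Uqcrq (-0.68), a small subunit.

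Against kidney, 58 members were higher and 5 lower in quadriceps, with 31.3% and 45% of all genes. Ndufs1, a core subunit of complex I that carries electrons toward ubiquinone, was higher in quadriceps by 1.27 ± 0.13 on the log2 scale (edgeR adjusted p = 1.91e-11), and Cox6b2 was lower (-5.49 ± 0.38, adjusted p = 1.68e-16). Kidney differed from liver in fewer members, 14 higher and 11 lower with 36.4% and 30.5% of all genes, led by Cox6b2 (2.92 ± 0.31, edgeR adjusted p = 1.11e-10) and Cox7a1 (1.92 ± 0.33, adjusted p = 2.45e-06) upward and by Uqcrq (-1.45 ± 0.18, adjusted p = 5.41e-09) and Uqcr11 (-0.79 ± 0.27, adjusted p = 0.0108), subunits of complex III, downward. Counts of members between tissues depended on the scaling: with total counts in place of TMM, kidney against liver gave 82 higher and 1 lower, and quadriceps against kidney 8 higher and 41 lower. With total counts, 64.3% of all genes were higher and 12.7% lower in kidney against liver. In quadriceps against kidney 16.2% were higher and 66.5% lower. That scaling moved the median of all genes from 0.09 to 0.86 in the first comparison and from -0.32 to -1.14 in the second. Relative to the median of all genes, the members' median was -0.13 to -0.14 in kidney against liver, 0.88 to 0.90 in quadriceps against kidney and 0.60 in quadriceps against liver under both scalings. The directions of the Cox6a, Cox7a and Cox8 pairs between quadriceps and the other tissues were the same under both.

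The comparison of old with young mice asked how expression of the chain differed with age. In liver, transcripts of all 5 complexes were lower in old mice. Averaged over the sexes, 59 of 83 tested members fell and none rose, against 8.27% of all genes that fell (edgeR, adjusted p under 0.05). The members' median log2 fold change was -0.45, with 81 of 83 negative, beside a median of -0.02 over all genes tested. Their share of all TPM was 1.4 ± 0.127% in young and 1.05 ± 0.108% in old liver (mean ± SD, n = 6), with ranges of 1.25 to 1.58% and 0.919 to 1.19% that did not overlap. Fewer cells of a type and less RNA per cell cannot be told apart in such bulk samples. In 35 of the 83 members every old library lay below every young one, a pattern shown by 3.62% of all genes.

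Complex I, the entry point for NADH, had 28 of 39 members that fell, with a median of -0.42 and all 39 negative. Ndufb8, a membrane-arm subunit often used to follow the complex, had 44.1, 52.3 and 62.9 CPM as lowest, median and highest of the 6 young libraries and 33.1, 35.8 and 43 CPM in the old ones. The groups did not overlap, and the change was -0.52 ± 0.10 (edgeR adjusted p = 0.00458). Ndufv3, an accessory subunit of the NADH-binding module, ran from 41.7 to 58.2 CPM (median 48.9) in young and from 25.8 to 37.4 CPM (median 34) in old liver, again without overlap (-0.56 ± 0.10, adjusted p = 0.00457). Ndufb9, an accessory subunit of the membrane arm, showed the largest fall of the complex, from a median of 59.7 CPM (55.2 to 76.6) to 36.4 CPM (31.6 to 46.7), a change of -0.74 ± 0.15 (edgeR adjusted p = 0.00685). Ndufs6 (-0.68 ± 0.16, adjusted p = 0.0127) and Ndufa5 (-0.63 ± 0.16, adjusted p = 0.0155) followed. The core subunits fell as well: Ndufv1, which binds NADH, by 0.55 on the log2 scale (edgeR adjusted p = 0.0122) and Ndufs1, which carries iron-sulfur clusters, by 0.38 (adjusted p = 0.0424). Ndufs1 ran from 75.3 to 91.9 CPM in young and from 58.7 to 76.3 CPM in old liver, with a narrow overlap. Its call was lost in 16 of 23 alternative fits, and those of Ndufb8, Ndufb9, Ndufs6 and Ndufv1 in 0.

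Complex II, which is also an enzyme of the citric acid cycle, had 3 of 4 members that fell. Its flavoprotein Sdha had 372, 408 and 456 CPM as lowest, median and highest in young and 252, 282 and 302 CPM in old liver, groups that stood well apart (-0.57 ± 0.12, edgeR adjusted p = 0.00692). Sdhb, its iron-sulfur subunit (-0.51, adjusted p = 0.0457), and the membrane anchor Sdhd (-0.57, adjusted p = 0.0144) fell too, and the other anchor, Sdhc, was at -0.30 (edgeR adjusted p = 0.0548). The call of Sdhb was lost in 15 of 23 alternative fits and that of Sdha in 0. In complex III 6 of 8 members fell. Uqcr11, its smallest subunit, had the largest fall of all called members: young libraries ran from 53.5 to 129 CPM (median 70.3) and old ones from 32.1 to 50.6 CPM (median 35.8), without overlap (-1.04 ± 0.21, adjusted p = 0.00598). The core protein Uqcrc1 went from a median of 243 CPM (215 to 308) to 165 CPM (151 to 206), which is -0.57 on the log2 scale (edgeR adjusted p = 0.0127), and the Rieske protein Uqcrfs1, which passes electrons to cytochrome c1, was at -0.37 and missed the threshold (adjusted p = 0.0687).

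Complex IV was the most mixed, with 7 of 15 tested members that fell and a median of -0.47. The 7 were Cox4i1, Cox5a, Cox6a1, Cox6b1, Cox6c, Cox7a2 and Cox8a, none of which is a muscle form. Cox6b1, which faces cytochrome c, had 79, 81.3 and 96.7 CPM as lowest, median and highest in young and 55.9, 59.6 and 67.8 CPM in old liver, with no overlap (-0.47 ± 0.09, edgeR adjusted p = 0.00457). Cox4i1, which binds ATP as a regulator, ran from 308 to 449 CPM in young and from 228 to 310 CPM in old liver, a narrow overlap (-0.50, adjusted p = 0.0267), and Cox5a overlapped more, at 52 to 81.3 CPM against 39.2 to 73.9 CPM (-0.52, adjusted p = 0.0261). Of 23 alternative fits, 7 lost the call of Cox4i1 and 8 that of Cox5a. The muscle forms Cox7a1 (-1.64, edgeR adjusted p = 0.0578) and Cox8b (3.12, adjusted p = 0.166) gave the outermost fitted values and did not pass. Cox8b counts in liver were 42, 9 and 0 in the 3 old females, 37, 0 and 1 in the corylin females and 0 to 3 in the other libraries, so that 2 old females and 1 corylin female held most of them.

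Complex V had the highest share, 15 of 17 tested members, with a median of -0.44. Atp5g3, the main source of subunit c, had 351, 385 and 455 CPM as lowest, median and highest in young and 224, 237 and 289 CPM in old liver. All old libraries were below all young ones, and the change was -0.69 ± 0.14 (edgeR adjusted p = 0.00576). The catalytic beta subunit Atp5b ran from 1200 to 1400 CPM in young and from 937 to 1090 CPM in old liver (-0.38, adjusted p = 0.0466), and the alpha subunit Atp5a1 from 1070 to 1290 and from 754 to 989 CPM (-0.48, adjusted p = 0.022), both without overlap. The call of Atp5b was lost in 17 of 23 alternative fits, that of Atp5a1 in 7 and that of Atp5g3 in 0.

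**Figure D2:**
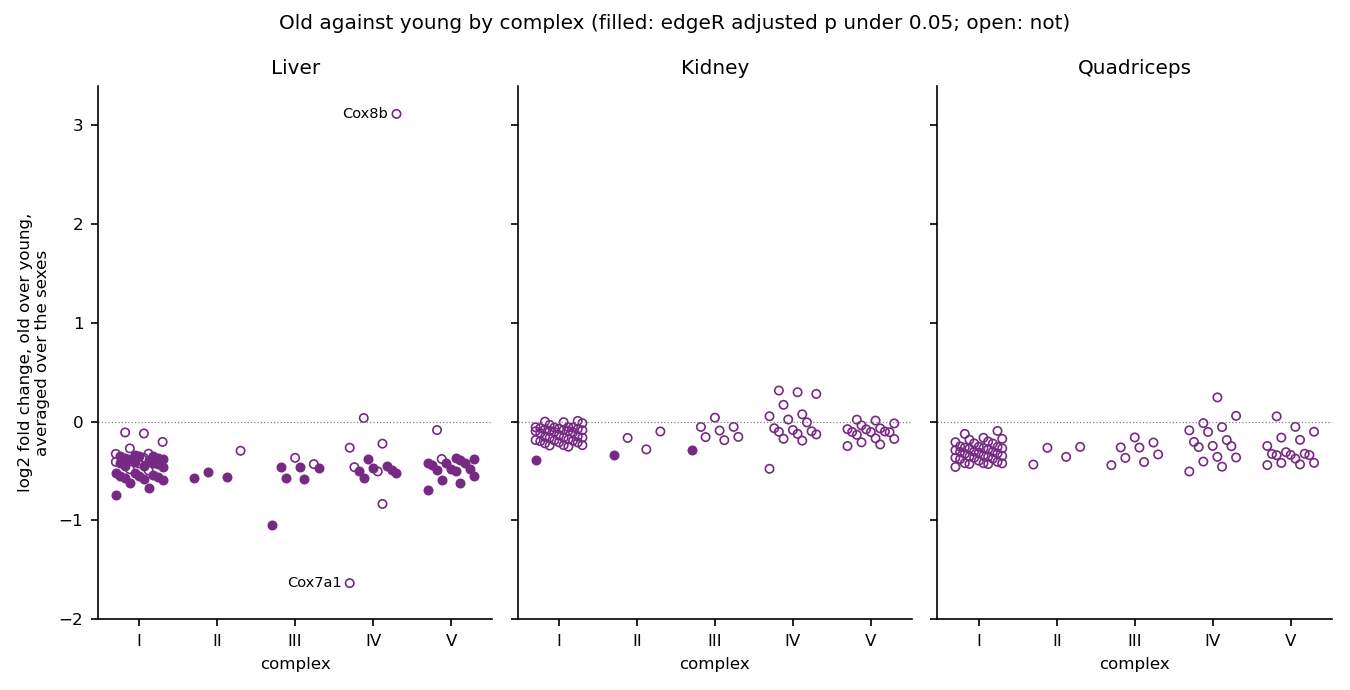
Log2 fold changes of old against young mice, averaged over the sexes, for each tested member by complex and tissue, with members that passed the test marked. The liver values of all complexes center between -0.42 and -0.54, and those of quadriceps between -0.33 and -0.23 with no member called.

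Within each sex the liver medians were alike and fewer members passed. In females 7 of 83 fell, with 3.73% of all genes, a members' median of -0.44 and 52 lower and 1 higher at an unadjusted p under 0.05. They were Atp5g3, Ndufv3, Atp5g1, Ndufb8, Cox6c, Cox6b1 and Sdha. In males edgeR called 0 members, with 0.211% of all genes called, although the median was -0.45, 58 members were lower at an unadjusted p under 0.05 and DESeq2 called 18. Of all 15158 genes, 4335 in females and 2960 in males were at that unadjusted p in either direction. The smallest male p belonged to Uqcr11 (-1.26 ± 0.29, edgeR adjusted p = 0.079). Of the 83 members, 79 were below 0 in both sexes. The sex difference of the age effect was called for 0 members by edgeR and by DESeq2, with 1 at an unadjusted p under 0.05 and 0% of all genes. At that unadjusted p stood 1307 of 15158 genes in either direction. No member passed between young females and young males (0 in edgeR and in DESeq2, 1 at an unadjusted p under 0.05, 1.28% of all genes). Over all 15158 genes 1452 were at that unadjusted p.

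The liver counts moved with single libraries. The share of all genes called was not computed for fits with a library left out or for DESeq2. Those counts of members thus have no background beside them. The average over sexes called 24 members without old female 1, 23 without old female 2, 34 without young female 1, 29 without young female 2, 31 without young female 3, 24 without old male 2, 39 without old male 3, 21 without young male 2 and 32 without young male 3. In females the 7 calls became 18 without old female 3, 29 without corylin male 2 and 28 without corylin male 3, 4 without corylin female 2, old male 1, old male 3, young male 1 or young male 2, 3 without young male 3, 2 without old male 2, 1 without old female 1 or young female 1, and 0 without old female 2, young female 2 or young female 3. In males the 0 calls became 28 without corylin male 2 and 35 without corylin male 3. Those 2 libraries differed widely, and with either left out the remaining one gives no estimate of spread.

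**Figure D3:**
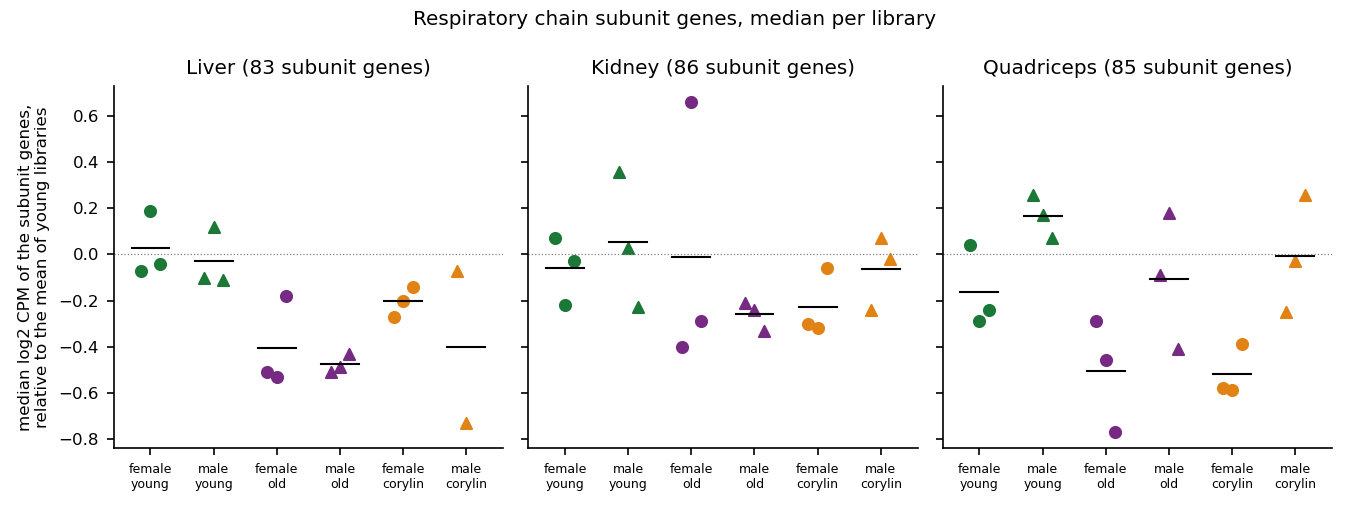
Median over the tested members of log2 CPM relative to the mean of the young libraries, 1 point per library, by tissue, sex and condition. Old livers lie between -0.53 and -0.18 and young livers between -0.11 and 0.19, and the old female 2 kidney stands alone at 0.66.

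Seen by library, the members' median in liver, as log2 CPM relative to the mean of the young libraries, was -0.11 to 0.19 in young mice, -0.53 to -0.18 in old ones, -0.27 to -0.14 in corylin females, and -0.07 and -0.73 in the 2 corylin males. Markers of immune cells moved with age in the same tissue: 12 of 12 macrophage markers were higher in old liver (median log2 2.48), and their sum was 191 to 374 CPM in young, 906 to 2010 CPM in old, 1310 to 1630 CPM in corylin female, and 303 and 4320 CPM in the corylin male livers 2 and 3. On this TMM scale corylin male 3 had the highest macrophage sum and the lowest members' median of all livers, whereas by share of TPM its members, at 1.12%, lay within the old range of 0.919 to 1.19%. Among hepatocyte markers 1 of 8 was higher and 2 lower in old liver, and their sum was 67200 to 116000 CPM in young and 62300 to 111000 CPM in old mice. The part of these cell markers in the fall of the members was not tested.

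Other genes of oxidative metabolism, from lists that were drawn up with earlier results known, moved less uniformly in old liver. Of the 13 subunits encoded in mitochondrial DNA 3 fell, mt-Nd1 (-0.54), mt-Co1 (-0.52) and mt-Co2 (-0.84), with a median of -0.52 over the list. Assembly factors of the chain had 13 of 51 members that fell (median -0.23), among them Coa3 (-0.55), Cox19 (-0.61) and the copper chaperone Sco2 (-0.99). The citric acid cycle had 10 of 18 that fell and 1 that rose (median -0.36): citrate synthase Cs was at -0.54, Suclg1 at -0.52 and Dlat of the pyruvate dehydrogenase complex at -0.59, and the gene that rose was the fumarase Fh1 (0.62). Mitochondrial ribosomal proteins had 21 of 77 that fell (median -0.25) and cytosolic ribosomal proteins 1 of 80 (median 0.02). Among electron carriers and their enzymes 4 of 14 fell (median -0.27), and 0 of 6 exchange carriers were called (median -0.21). Of 17 regulators of mitochondrial biogenesis 1 rose, Ppard (0.47), and 2 fell, Ppara (-0.60) and Tfam (-0.32, edgeR adjusted p = 0.0326), which packages mitochondrial DNA. Esrra (-0.12, adjusted p = 0.603) and Ppargc1a (0.51, adjusted p = 0.346), which act on respiratory genes, did not pass.

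**Figure D4:**
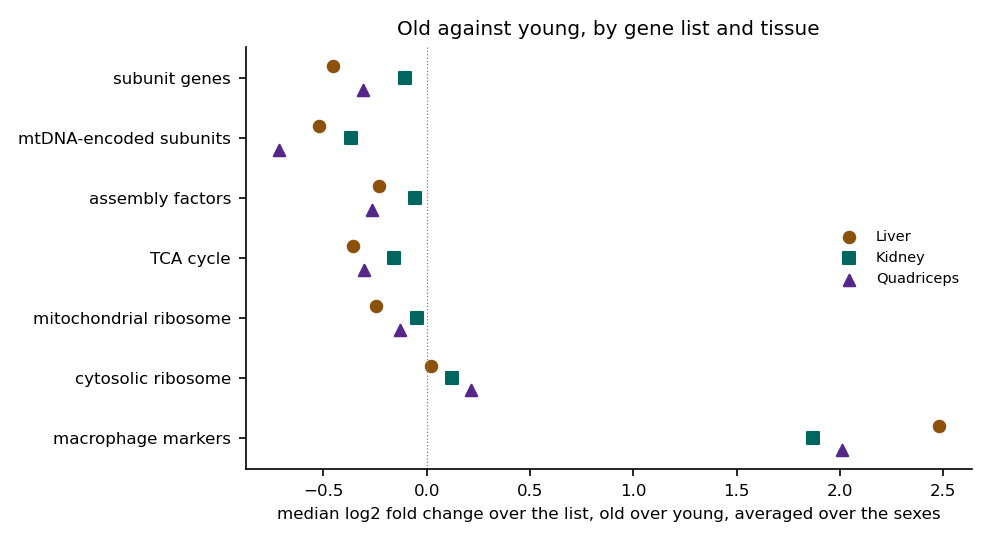
Median log2 fold change of old against young mice, averaged over the sexes, for the members, the subunits encoded in mitochondrial DNA and related gene lists, in each tissue. Liver members stand at -0.45 and cytosolic ribosomal proteins at 0.02, and in quadriceps the subunits encoded in mitochondrial DNA stand at -0.72.

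In kidney 3 of 86 members fell with age, 1 each of complexes I, II and III, and none rose, with 2.22% of all genes lower. Ndufs1 of complex I had 173, 194 and 218 CPM as lowest, median and highest in young and 124, 155 and 165 CPM in old kidney, without overlap (-0.39 ± 0.08, edgeR adjusted p = 0.00448). Sdha of complex II ran from 698 to 760 CPM (median 717) in young and from 460 to 644 CPM (median 594) in old kidney, also apart (-0.34 ± 0.09, adjusted p = 0.0216). The complex III core protein Uqcrc2 overlapped, at 212 to 269 CPM against 171 to 245 CPM (-0.29 ± 0.08, edgeR adjusted p = 0.0332). Ndufs1 and Sdha were the 2 members without overlap, with 0.46% of all genes. Ndufs1 passed in all 24 alternative fits, whereas Sdha was lost in 6 and Uqcrc2 in 11.

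The median over all kidney members was -0.10 (-0.04 with total counts), with complex medians from -0.07 in complex IV to -0.22 in complex II. The members' share of all TPM was 2.48 ± 0.266% in young and 2.47 ± 0.617% in old kidney (mean ± SD, n = 6), with overlapping ranges. In females the median was 0.13, 64 of 86 members were positive, and 2 fell (Ndufs1 and Sdha, with 3.16% of all genes). The sign of that median rests on 1 library, old female 2, without which it was -0.29 with 83 of 86 negative. In males the median was -0.37, 84 of 86 members were negative and edgeR and DESeq2 called 0 (7 lower at an unadjusted p under 0.05, 0.111% of all genes called). At that unadjusted p, 1879 of 17174 genes differed in either direction. Without old female 2 the male median was again -0.37, and 47 members were lower at that unadjusted p. The count over all genes at that p was not computed for that fit. The difference between the sexes had a median of 0.47 and passed for 0 members in edgeR and in DESeq2, with 3 at an unadjusted p under 0.05 and 0.0932% of all genes, and its smallest p was that of Uqcr11 (1.54 ± 0.50, edgeR adjusted p = 0.187). Over all genes 2492 of 17174 were at that unadjusted p in either direction. Without old female 2 the median difference was 0.05.

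One library stood apart. Old female 2 had a members' median of 0.66, where the other 2 old females were at -0.40 and -0.29 and the old males at -0.21, -0.24 and -0.33. All complexes shared it, from 0.29 in complex II to 0.81 in complex III, and the members made up 3.7% of its TPM against 2.01 to 2.77% in the 17 other kidneys. Without it, 31 members fell with age in the average over sexes, among them Ndufv1 (-0.40, edgeR adjusted p = 0.0251), Sdhb (-0.42, adjusted p = 0.0156), Uqcrfs1 (-0.35, adjusted p = 0.0394), Atp5a1 (-0.32, adjusted p = 0.0397) and Atp5b (-0.31, adjusted p = 0.048). In that fit the members' median was -0.31 and that of all genes -0.01, and the share of all genes called was not computed. The count became 1 without old female 1, young female 3, old male 2, old male 3 or young male 2. In females the 2 calls became 0 without old female 1 or young female 3, and 1 without corylin female 2, old female 3, young female 2, corylin male 3 or any 1 of the old or young males. The same library had a median of 0.71 for cytosolic ribosomal proteins (the other kidneys -0.29 to 0.32), -0.97 for the subunits encoded in mitochondrial DNA, which was the lowest of all kidneys, and a summed adipocyte marker level of 528 CPM against 36.5 to 93.1 CPM in the others. The part of these differences in its members' values was not tested.

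Macrophage markers were higher in old kidney as well, 10 of 11 tested (median 1.87), with sums of 147 to 288 CPM in young and 299 to 1130 CPM in old mice. Proximal tubule markers, of which 0 of 8 were called, summed to 31300 to 38400 CPM in young and 14800 to 22700 CPM in old males, and to 11200 to 13800 CPM in young and 11100 to 17500 CPM in old females. Their part in the members' values was not tested. Related lists were mostly not called in old kidney: 0 of 13 subunits encoded in mitochondrial DNA (median -0.37), 1 of 51 assembly factors, 2 of 18 citric acid cycle genes (median -0.16) and 1 of 77 mitochondrial ribosomal proteins fell. Ppargc1a (-0.28, edgeR adjusted p = 0.264), Esrra (-0.15, adjusted p = 0.522) and Tfam (-0.15, adjusted p = 0.432) did not pass.

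Between young females and young males of the kidney, 1 member passed, Cox8b, the muscle form of subunit 8, with 2.37% of all genes higher in females. Its TPM was 37.3, 26.2 and 12.2 in the young females and 0.312, 0.911 and 0.365 in the young males. Old females had 26.0, 99.6 and 28.1 TPM and corylin females 30.7, 20.7 and 9.47, whereas old males had 1.14, 0 and 0 and corylin males 0.418, 0.508 and 0. Every female kidney was thus above every male kidney at both ages and on both diets. The young difference was 5.16 ± 0.86 on the log2 scale (edgeR adjusted p = 0.00118), it rests on 1, 3 and 1 counts in the 3 young males against 76, 58 and 29 in the young females, and it passed in all 24 alternative fits at 4.77 to 5.74. Its partner Cox8a was at -0.31 (adjusted p = 0.54), and Cox8b made up 0.0176 to 2.61% of the pair in young kidney. Without old female 2, 3 members passed in this comparison in place of 1.

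**Figure D5:**
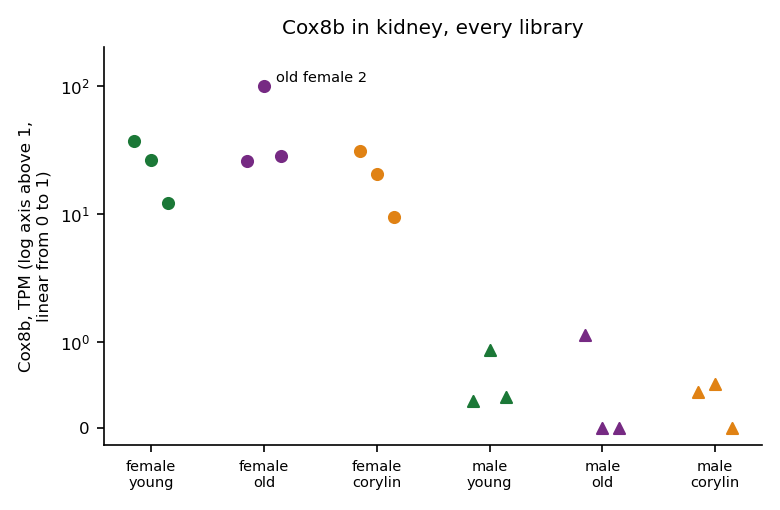
TPM of Cox8b in each kidney library by sex and condition. All 9 female kidneys lie above 9 TPM, with old female 2 at 99.6, and all 9 male kidneys lie at or below 1.14.

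Of 4 genes of fast oxidative muscle fibres, 1 passed the filter on low counts in kidney, Myh1, a fast myosin heavy chain, and it was higher in young females by 5.19 ± 0.587 (edgeR adjusted p = 2.34e-05). The summed level of the 4, which a single gene can carry, was 3.85 to 15 CPM in females and 0.16 to 0.771 CPM in males. Fast glycolytic fibre genes overlapped between the sexes (9.18 to 42.7 CPM over all kidneys), as did slow fibre genes (418 to 602 CPM). Of 6 tested adipocyte markers 1 passed between young females and males, Plin4, higher in females, and the median of the 6 was 0.28. Ucp1, the defining brown fat gene, was near 0 outside old female 2, which had 11.7 CPM. The part of these cells in the Cox8b level was not tested.

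In quadriceps no member passed for age, and most pointed down. Averaged over the sexes edgeR called 0 of 85 (3.59% of all genes), with a members' median of -0.31, 82 of 85 negative and 46 lower at an unadjusted p under 0.05, and DESeq2 called 9 lower. Over all genes 3630 of 14173 were at that unadjusted p in either direction. With total counts in place of TMM, which moved the median of all genes from 0 to 0.12, the members' median was -0.18, and relative to all genes it was -0.30 under both. Median changes were near each other in complexes I (-0.31), II (-0.31), III (-0.30) and V (-0.33), and -0.23 in complex IV. By share of all TPM the members were at 2.3 ± 0.251% in young and 2.12 ± 0.256% in old muscle (mean ± SD, n = 6), with overlapping ranges. The members with the smallest p were Ndufb11 of complex I, whose lowest, median and highest values were 139, 159 and 185 CPM in young and 102, 128 and 159 CPM in old muscle (-0.30 ± 0.09, edgeR adjusted p = 0.0615), Atp5j, a stalk subunit of complex V (-0.42 ± 0.12, adjusted p = 0.0662), and Ndufa12 (-0.38 ± 0.11, adjusted p = 0.0673). Old and young libraries overlapped in each of these, and in quadriceps 0 members had groups without overlap (0.494% of all genes).

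Leaving out 1 library changed the quadriceps count: 24 members fell without old female 1 and 1 without young female 2. No share of all genes was computed for these fits. In females 0 passed (6.67% of all genes, 25 lower at an unadjusted p under 0.05, DESeq2 3), and 12 fell without old female 1. In males 0 passed in edgeR and in DESeq2 (0% of all genes, 12 lower at an unadjusted p under 0.05). Over all 14173 genes, 3716 in females and 2597 in males were at that unadjusted p in either direction. Those shares were near those of the members, but the members at that p were all lower. The sex difference of the age effect was called for 0 members in edgeR and in DESeq2, with 1 at an unadjusted p under 0.05 and 0.226% of all genes. At that unadjusted p stood 2845 of 14173 genes in either direction.

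Fibre genes and immune markers differed between single muscles. Slow fibre genes summed to 55.5 to 9220 CPM, with young female 1 at 9220, corylin male 3 at 3430 and old female 1 at 2050 CPM. Fast oxidative genes summed to 1340 to 32200 CPM, highest in corylin male 3, whose members' median of 0.26 was the joint highest of all muscles with young male 1. Old female 3 had the lowest members' median, -0.77, the lowest fast glycolytic sum, 76500 CPM, and a macrophage sum of 1080 CPM against 34.3 to 124 CPM in the other muscles. The part of these cell and fibre markers was not tested. Of the related lists, the subunits encoded in mitochondrial DNA had 5 of 13 that fell in old muscle (median -0.72), assembly factors 3 of 51 (median -0.26), the citric acid cycle 0 of 18 (median -0.31) and mitochondrial ribosomal proteins 2 of 77. Esrra (-0.55, edgeR adjusted p = 0.0853), Tfam (-0.27, adjusted p = 0.103) and Ppargc1a (0.50, adjusted p = 0.498) did not pass.

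Young female and male muscle differed in 1 member, with 0.776% of all genes lower in females. Ndufs6, a zinc-binding subunit of complex I, was at 31.5, 24.1 and 28.4 CPM in young females and 58.6, 52.3 and 49.4 CPM in young males, with no overlap (-0.93 ± 0.20, edgeR adjusted p = 0.0354). Old females were at 31.1, 24.4 and 22.2 CPM and old males at 43.5, 46.2 and 23.7 CPM, so that 1 old male fell into the female range. Reads of its processed pseudogene Ndufs6b could have been assigned to it. The call was lost in 7 of 24 alternative fits: 0 members passed without any 1 of the 6 young libraries or without corylin male 2, whereas 4 passed without old female 1, 6 without old female 3 and 5 without old male 3. At an unadjusted p under 0.05, 31 members were lower in young female muscle, and DESeq2 called 9. Over all genes 2505 of 14173 were at that unadjusted p in either direction.

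The corylin comparison asked whether the diet altered these genes in aged mice. In liver the members of the corylin group lay mostly above the old ones and no member passed. Averaged over the sexes 0 of 83 were called by edgeR and by DESeq2 (1.07% of all genes), with a median of 0.16, 77 members positive and 12 higher at an unadjusted p under 0.05. At that unadjusted p, 2891 of the 15158 genes tested differed in either direction, a larger share than that of the members. The members at that p were all higher. The smallest p was that of Ndufa11, a membrane-arm subunit of complex I, at 29.8, 38.2 and 45.3 CPM as lowest, median and highest in young, 23.8, 27.8 and 32.3 CPM in old and 25.8, 40.8 and 41.9 CPM in corylin liver, where old and corylin overlapped (0.42 ± 0.13, edgeR adjusted p = 0.116). With total counts in place of TMM, which moved the median of all genes from 0.06 to 0.2, 4 members were higher and the members' median was 0.28. Under that scaling 2.25% of all genes were higher. Complex medians ran from 0.14 in complex IV to 0.22 in complex II. By share of all TPM the members were at 1.25, 1.33 and 1.48% in corylin females and 1.35 and 1.12% in corylin males 2 and 3. Old livers were at 0.919 to 1.19%. In females 0 passed in edgeR and in DESeq2 (0.152% of all genes, median 0.20, 72 positive, 5 higher at an unadjusted p under 0.05). Over all genes 2389 of 15158 were at that unadjusted p in either direction, again a larger share. The members at that p were again all higher. Uqcr11 had the smallest female p: corylin females had 80.9, 65.9 and 96.5 CPM against 50.6, 35.4 and 43.6 CPM in old females, groups that did not overlap, and the change of 0.91 ± 0.29 missed the threshold (edgeR adjusted p = 0.152). Since Uqcr11 was named for its small p, the gap between the groups is no separate support.

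The 2 corylin male livers stood apart. Corylin male 2 had 88.9 CPM of Ndufs1 and 395 CPM of Sdha, within the young range, and corylin male 3 had 47.9 and 231 CPM, below every old liver. That order depends on the scaling: in TPM corylin male 3 had 18.4 for Ndufs1 and 174 for Sdha, above the lowest old livers at 16.4 and 137 TPM. In males 0 members passed in edgeR and in DESeq2 (0.0594% of all genes, median 0.15, 71 positive, 1 at an unadjusted p under 0.05), so the male value is a mean of these unlike libraries. Over all genes 1620 of 15158 were at that unadjusted p in either direction. Without corylin male 2, 1 member was called higher and 3 lower in males, and in the average over sexes 1 lower, and the sex difference held 1. Without corylin male 3 the average called 3 higher, and without old female 3 it called 1 higher, as did females, while the sex difference of the age effect held 1. The sex difference of the corylin effect was called for 0 members in edgeR and in DESeq2 (0% of all genes), with 1 at an unadjusted p under 0.05. At that unadjusted p stood 1033 of 15158 genes in either direction. The macrophage sums given above differed between these 2 livers as well, and their part was not tested.

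In kidney the diet effect had a median of -0.03 over 86 members, and 0 passed in edgeR and in DESeq2 (0.0641% of all genes, 1 lower at an unadjusted p under 0.05). At that unadjusted p stood 1653 of 17174 genes in either direction. Without old female 2 the median was 0.14, and with total counts 0.01, again with 0 called by edgeR in both. Without that library 78 of 86 members were positive and 18 were higher at that unadjusted p. The count over all genes at that p was not computed without that library. Shares of all TPM were 2.36 to 2.61% in corylin females against 2.24 to 3.7% in old ones. In males they were 2.37 to 2.53% against 2.01 to 2.27%. In females the median was -0.29, or 0.13 without old female 2, and 0 passed in edgeR (0.0582% of all genes, 7 lower at an unadjusted p under 0.05), and DESeq2 called 1. Cox6c, a complex IV subunit, had 123, 86.4 and 111 CPM in corylin females and 156, 293 and 141 CPM in old females, without overlap (-0.88 ± 0.23, edgeR adjusted p = 0.157). Without old female 2 that value was -0.47, and without old female 3 edgeR called 1 member. Since Cox6c was named for its small p, the lack of overlap is no separate support. In males the median was 0.20 and 0 passed in edgeR and in DESeq2 (0.0699% of all genes, 2 higher at an unadjusted p under 0.05). Over all 17174 genes 1245 were at that unadjusted p in males. Without old female 2, 19 members were higher and 1 lower at that p in males, and 1 higher and 1 lower in females. The sexes' difference had a median of -0.47, or -0.07 without old female 2, and passed for 0 members in edgeR and in DESeq2, with 14 at an unadjusted p under 0.05 and 0.00582% of all genes, and Uqcr11 had the smallest p (-1.79 ± 0.50, adjusted p = 0.334). At that unadjusted p, in either direction, stood 2055 of 17174 genes in females and 1708 in the sexes' difference. Uqcr11 stood at 71, 96.6 and 103 CPM in corylin males against 50.1, 53.1 and 46.7 CPM in old males, and at 83.1, 41.7 and 56.3 CPM in corylin females against 78.5, 193 and 75.8 CPM in old females. In males the groups did not overlap, and in females they did. Since Uqcr11 was named for its small p, the male gap is no separate support.

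In quadriceps the members' median under corylin was 0.04 (-0.03 with total counts), and 0 of 85 passed in edgeR and in DESeq2 (0% of all genes, 0 at an unadjusted p under 0.05). At that unadjusted p stood 1131 of 14173 genes in either direction. Neither sex had a called member in either tool: 0% of all genes passed in females, with 1 member at an unadjusted p under 0.05, and 0% in males, with 1 higher and 1 lower at that p. Shares of all TPM were 1.74 to 1.89% in corylin and 1.84 to 2.29% in old females. In males they were 2.14 to 2.7% and 1.91 to 2.51%. The sex difference was called for 0 members as well in both tools (0% of all genes, 1 higher and 2 lower at an unadjusted p under 0.05). Of all 14173 genes, 2467 in females, 1380 in males and 2790 in the sex difference were at that unadjusted p. In the average over sexes, in liver 1 of 14 electron carrier genes and 1 of 18 citric acid cycle genes fell under corylin, and 0 subunits encoded in mitochondrial DNA, assembly factors or ribosomal proteins were called in any tissue. Under corylin Ppargc1a, Esrra and Tfam passed in no tissue, with Esrra in liver having the smallest edgeR adjusted p among them (0.26, adjusted p = 0.388).

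Whether the age effect differed between tissues was tested directly. Between quadriceps and liver 0 members passed in edgeR (4.72% of all genes, 4 higher and 2 lower at an unadjusted p under 0.05) and 1 in DESeq2, and without young female animal 2 edgeR called 1. At that unadjusted p stood 3508 of 18970 genes in either direction. Cox6a1 had the smallest p, with a difference of 0.80 ± 0.29 (edgeR adjusted p = 0.11). Between kidney and liver 0 passed in edgeR (2.3% of all genes, 17 higher at an unadjusted p under 0.05) and 1 in DESeq2, with Cox7a1 (1.62 ± 0.56, adjusted p = 0.124), Uqcr10 (0.62 ± 0.22, adjusted p = 0.138) and Ndufb8 (0.44 ± 0.17, adjusted p = 0.165) first. Over all genes 2778 of 18970 were at that unadjusted p in either direction. Between quadriceps and kidney 0 passed in edgeR and in DESeq2 (0.833% of all genes, 1 at an unadjusted p under 0.05). Here 2434 of 18970 genes were at that unadjusted p. The members' median difference was 0.13 in quadriceps against liver (72 of 86 positive) and 0.31 in kidney against liver (77 positive). In quadriceps against kidney it was -0.18 (75 negative). Medians over all genes were 0, -0.02 and 0.01, in the same order. For the corylin effect, the test between tissues called 0 members in edgeR and in DESeq2, with 0.332% of all genes in quadriceps against liver, 0.179% in kidney against liver and 0% in quadriceps against kidney, and 1, 2 and 0 members at an unadjusted p under 0.05. Of all 18970 genes 2626, 2321 and 968 were at that unadjusted p, in the same order. With the animal as a block, 0 members were called for each of these 6 differences. Leaving out 1 animal at a time, edgeR called 2 members for age in kidney against liver without old female 3 and 1 without old male 1, and without old female 3 also 1 for corylin in quadriceps against liver and 1 in kidney against liver. Without old female 2 all 6 counts were 0. A fall of the members that is larger in liver than in the other tissues was thus not called by this test, which does not show that the falls were alike. Sizes of the age effect across members were little related between tissues: over 83 members liver and kidney gave Pearson's r = 0.28 and Spearman's rho = -0.1, liver and quadriceps -0.08 and 0.19 over 82, and kidney and quadriceps 0.06 and 0.07 over 85. These describe genes measured in the same animals, and genes are not independent replicates.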

How the data were processed

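RNA-seq of poly(A) RNA was analysed in 53 libraries of liver, kidney and quadriceps from 18 mice. The series lists 54 samples, and of the male corylin livers replicate 1 was not used here. Libraries were stranded TruSeq mRNA libraries from TRIzol-extracted RNA, per the labels' protocols. The submitters' processing notes name featureCounts 2.0.1, HISAT2 2.1.0, FastQC 0.11.9 and fastp 0.20.0, with the genome build GRCm38 (mm10). Neither a strand setting for counting nor an annotation release is stated in the labels, so overlapping, antisense and near-identical genes are uncertain.

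The authors deposited raw counts per gene, as whole numbers, and all tests start from them. The deposited TPM values were made by the authors and serve to set levels of genes side by side, with no test. A total of 0 columns of per-sample values was left without a sample.

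Genes were kept by filterByExpr (minimum count 10, minimum total 15). Groups were compared with edgeR 4.0.16 in R 4.3.3, by its robust quasi-likelihood F test after TMM scaling, with 1 fit per tissue over its 6 groups and 1 joint fit of all libraries for comparisons between tissues. P-values were adjusted by Benjamini-Hochberg over all genes of a comparison, with a threshold of 0.05. Log2 CPM used a prior count of 2, and SE is that of the log2 fold change. The alternatives were RLE size factors, no filter, DESeq2 1.42.0, the replicate number (within a tissue) or the animal (between tissues) as a block, the letter in the library names (B in 41, R in 12, meaning not given; all R libraries are from mice of 130 weeks and all young ones are B, so the letter is partly confounded with age), each library left out in turn within a tissue, each young animal left out between tissues and, added after the data were seen, each old or corylin animal left out between tissues, total counts without normalization factors and a rule on groups without overlap. The test was checked on 1 simulated draw per tissue, for old against young females. Of genes given a log2 change of 1, it recovered 43% in liver, 64.6% in kidney and 43.6% in quadriceps. At a change of 2 it recovered 73.2, 80.6 and 82.5%, with 6, 1 and 9 false calls in all. Smaller changes, the size of the members' medians for age and corylin, were not simulated. Library names tie the libraries of an animal across tissues (corylin male 2 of liver is corylin male 1 of kidney and quadriceps), and replicates are separate animals, so p-values measure the spread between animals and its measurement.

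The members and the gene lists were chosen with earlier results of these data known. Named members are, per comparison, up to 5 highest and 5 lowest among those called or, where none was called, up to 3 with the smallest p, together with core subunits, tissue-type pairs and the members with the highest TPM. Ppargc1a, Esrra and Tfam are given for age and corylin averaged over the sexes, and other genes are the first of their list by p or named beside a value of a marker list. Promoter windows are RefSeq's for GRCm38.p6. Of the members this rule takes, 1 is not reported here.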

Additional observations from a re-analysis of the deposited data

How the results depend on the processing

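Groups held 3 libraries, or 2 in liver of corylin males. Shares of all genes called were computed for the main edgeR fit. For age, corylin and young tissues averaged over the sexes they were also computed with RLE and with total counts. They were not computed for the other alternatives, such as DESeq2 or fits with a library left out, so those counts of members have no background. Over 36 counts of called members, 758 of 846 alternatives stayed within 1.5 times the main count and 88 did not. Over 159 values of named members in 3726 alternatives, 3486 kept their direction and call, 178 lost the call, 51 gained it and 11 changed sign. The cause was not tested for any of these.

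With DESeq2 the members called were 19 in liver for age in females, 18 in males, 1 in kidney for corylin in females, 3 in quadriceps for age in females, 9 in the average over sexes and 9 between young females and males, and 1 each for the difference of the age effect between quadriceps and liver and between kidney and liver. Without a filter they were 2 for age in female liver, 0 for age in female kidney and 1 for age in kidney averaged over sexes. With total counts they were 30 for age in female liver, 1 for corylin in female liver, 4 for corylin in liver averaged over sexes, 1 for the difference of the age effect between quadriceps and liver, and 83 between kidney and liver. Of all genes, 2.25% were higher and 0.376% lower for that corylin average with total counts. Between kidney and liver 64.3% were higher and 12.7% lower. With the library letter as a term, 2 members differed between young female and male muscle. The 59 calls for age in liver became 54 with RLE, 48 without a filter, 45 with the letter, which is R in aged mice alone, 60 with total counts and 63 with DESeq2. Of all genes 8.27% fell in the main fit, 7.23% with RLE and 8.1% with total counts.

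With the replicate number as a block, the counts for age in liver were 9 in females, 0 in males and 59 averaged over sexes, 3 in kidney and 0 in quadriceps. With the animal as a block, between tissues, they were 61, 23 and 60 for quadriceps against liver, kidney against liver and quadriceps against kidney. Neither block moved a count by more than 1.5 times. Within a tissue, libraries with the same number deviated together only weakly. The median correlation of such pairs was 0.0644 (liver), 0.0285 (kidney) and 0.0746 (quadriceps), with a lowest of -0.404. Pairs with other numbers had medians of -0.0333, -0.00409 and -0.0637. These values do not decide whether the number carries a pairing.

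Leaving out 1 library at a time gave 0 to 29 calls for age in female liver, 0 to 35 in male liver and 21 to 66 averaged over sexes. For corylin in liver it gave 0 to 1 in females, 0 to 4 in males and 0 to 3 averaged, and 0 to 1 for the sex difference of either effect. In kidney it gave 0 to 2 for age in females, 1 to 31 averaged, 0 to 1 for corylin in females and 1 to 3 between young females and males. In quadriceps it gave 0 to 12 for age in females, 0 to 24 averaged and 0 to 6 between young females and males. Leaving out 1 of the 18 animals at a time, the difference of the age effect gave 0 to 1 between quadriceps and liver and 0 to 2 between kidney and liver, and that of the corylin effect 0 to 1 in both.

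The 11 changes of sign of named members were as follows. Kidney against liver turned with total counts for Ndufa7 (0.27), Ndufs6 (0.29) and Sdhd (0.29). For age in kidney, Cox4i1 became 0.02 without old female 1, 0.01 without old female 3 and 0.03 without young male 1 (lowest -0.26), and Cox5a -0.17 without old female 2 (highest 0.56). For age in quadriceps, Cox5a became 0.01 with total counts and 0.04 without old female 3 or old male 3 (lowest -0.24). For corylin in male liver, Cox8a became -0.05 without corylin male 2 (highest 0.61). The members' medians, recomputed under each scaling and in kidney without old female 2, changed sign without that library for age in females (-0.29), corylin in females (0.13) and corylin averaged over sexes (0.14), and with total counts for corylin in quadriceps (-0.03) and kidney (0.01), kidney against liver (0.72) and quadriceps against kidney (-0.26).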

Other observations

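The nuclear subunits and their 13 partners encoded in mitochondrial DNA did not keep one order between sexes and tissues. By library, as medians of log2 CPM relative to the young mean, old female livers stood at -0.68, -0.74 and -0.77 for the mitochondrial genes and at -0.51, -0.53 and -0.18 for the nuclear ones, whereas old male livers stood at -0.13, -0.04 and -0.36 against -0.51, -0.49 and -0.43. The mitochondrial genes were thus the lower group in old females and the higher group in old males. The sex difference of the age effect had a median of -0.36 over these 13 in the liver, -0.43 in the kidney and -0.41 in the quadriceps, and edgeR called 0 of the 13 in each, with mt-Nd3 at -1.46 ± 0.706 (edgeR adjusted p = 0.599) in liver. The mt-Nd3 level there was 2.68 to 9.07 CPM apart from young female 2, at 21.2 CPM. Levels of the 13 differed widely, with mt-Co1 at 13000 to 28400 CPM in liver, and the medians count each gene alike.

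In young quadriceps all 13 mitochondrial genes were higher than in liver (median 2.02), where the nuclear members' median was 0.53. In muscle they also had the lower medians with age, -0.95 in females and -0.49 in males, beside -0.31 and -0.25 for the nuclear members.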
